A study of Mus musculus with 2 samples.

Results

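Glutamate receptors and their auxiliary subunits were examined in total RNA of midbrain from B6NCrl mouse embryos at day 15.5 of gestation. The 34 genes were chosen by name, with earlier results of these data known. They encode 4 AMPA, 5 kainate, 7 NMDA and 1 delta receptor subunits, 7 metabotropic receptors and 10 auxiliary subunits, and all 34 were found by Ensembl gene ID among the 43346 Ensembl genes of both gene tables. The 2 libraries were biological replicates of 1 group, each made from 10 ng of RNA longer than 200 nt. Replicate 1 came from a pool of 78 embryos and replicate 2 from a pool of 62, with both sexes mixed in each and no treatment or mutation given in the labels. The design therefore allows comparisons between genes and between the pools, and none between conditions.

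Replicate 1 held 38071947 expected counts on Ensembl genes and replicate 2 held 39439705, of which the 34 genes took 0.205% and 0.213%. All 6 midbrain markers were expressed, with summed levels of 244 TPM in replicate 1 and 242 TPM in replicate 2. None of 5 hindbrain markers reached 1 TPM in both libraries (sums of 0.680 and 1.06 TPM), while 7 of 7 telencephalic markers did (sums of 96.0 and 85.4 TPM). In whole tissue, fewer cells of a type and less RNA per cell cannot be told apart. PCR copies could not be recognised, so counting intervals cover counting error only. Each level below is the deposited TPM (transcript abundance per length, scaled to the same total in each library), and a mean ± SD is over the 2 libraries (n = 2).

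Glutamate is the main excitatory transmitter of the vertebrate brain. AMPA, kainate and NMDA receptors are cation channels assembled from the subunits of their own class, and metabotropic receptors act through G proteins. NMDA channels need the obligatory subunit GluN1 (Grin1) together with GluN2 or GluN3 subunits. AMPA receptors reach the membrane and gate with the help of TARPs (the Cacng genes) and cornichons (Cnih2 and Cnih3), and kainate receptors with Neto proteins. In neurons the subunit makeup and the splice forms of these channels are known to change between the embryo and the adult.

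Of the 34 genes, 31 were at 1 TPM or more in both libraries, a level called expressed here. The share of all Ensembl genes that met this rule was 35.4% (15347 of 43346) and that of protein coding genes was 62.4% (13401 of 21474). The 3 genes below it were the metabotropic receptor gene Grm6 and the NMDA subunit genes Grin2c and Grin3b. A further 11 genes had mean levels of 1 to 10 TPM and 20 had 10 TPM or more, among them Cnih2 and Gria2 above 100 TPM. The libraries gave the 34 genes a median of 12.9 TPM (replicate 1) and 13.7 TPM (replicate 2), below the median of 20.3 ± 0.0141 TPM of the 13401 expressed protein coding genes. In the order of levels within each receptor class, and within the TARP, cornichon and Neto families, Grik2 and Grik1 were the only neighbours whose values overlapped between the libraries. Across the auxiliary families the values of Cnih3 overlapped those of Cacng5, and the values of Neto1 those of Cacng8.

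**Figure D1:**
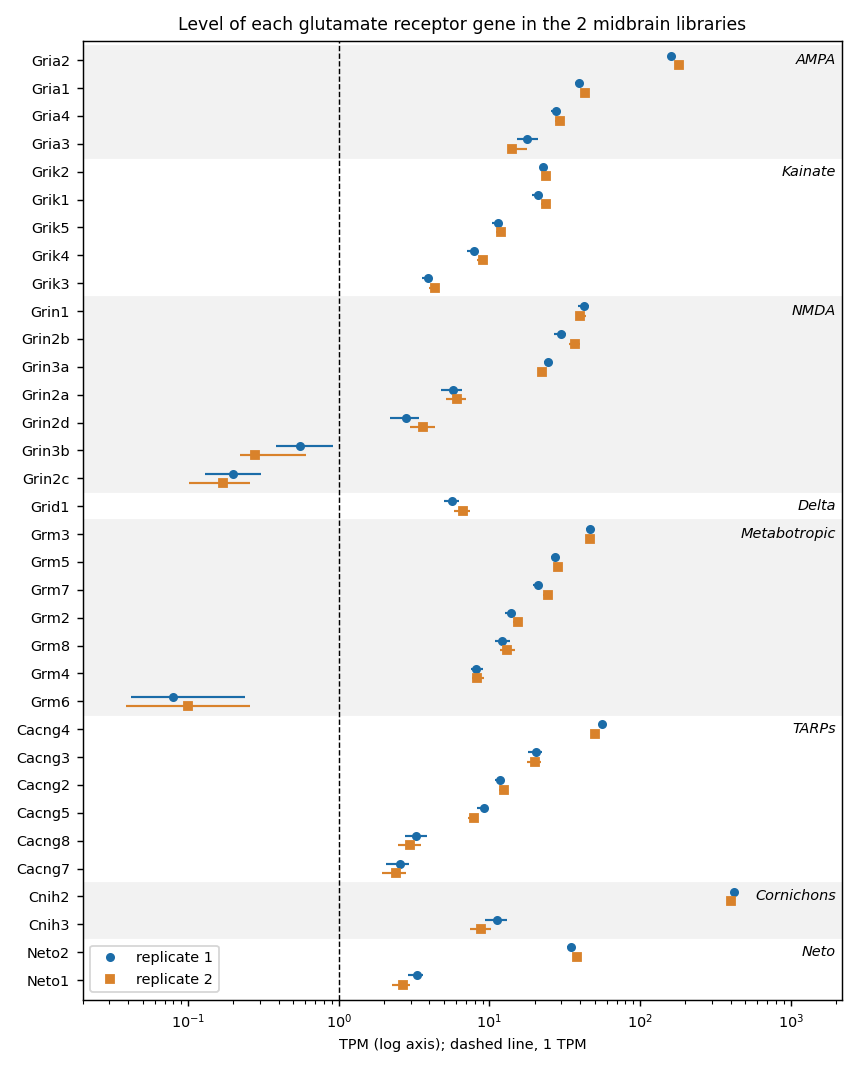
TPM of each of the 34 genes in replicate 1 (circles) and replicate 2 (squares) on a log axis, by receptor group; the lines are the deposited credible bounds, which surround the posterior mean and need not hold the plotted TPM. The dashed line at 1 TPM separates 31 expressed genes from Grin3b, Grin2c and Grm6, and Cnih2 stands apart at 418 and 402 TPM.

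All 4 AMPA subunit genes were expressed, and Gria2 was the highest. Gria2 (chr3:80681450-80802835, minus strand, mm10) encodes GluA2, the subunit that limits calcium entry when its RNA is edited at the Q/R site, and had 161 TPM in replicate 1 and 180.4 TPM in replicate 2. It stood above 93.5% of expressed protein coding genes. Gria1 (chr11:57011387-57330244, plus strand), for GluA1, had 39.4 and 43.4 TPM. Gria4 (chr9:4417896-4796234, minus strand), for GluA4, had 27.7 and 29.3 TPM. Gria3 (chrX:41400854-41678601, plus strand), for GluA3, was the lowest with 17.8 and 14.2 TPM. No value of one subunit gene overlapped that of another. Gria2 took 66.5 ± 1.45% of the summed AMPA subunit TPM, Gria1 16.1 ± 0.134%, Gria4 11.1 ± 0.217% and Gria3 6.29 ± 1.37%.

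The lead of Gria2 was smaller when only transcripts with a complete coding sequence were counted, an alternative chosen after seeing the data. The leading transcript of Gria2 was Gria2-206, annotated as a retained intron, with 44.2% of the gene's TPM in replicate 1 and 46.6% in replicate 2. Its last exon (chr3:80691521-80692532, minus strand) holds the 248-nt exon that precedes the flip and flop exons and then runs on for 764 nt into the intron, so it ends before both of them. The R/G editing site of GluA2 is known to lie at the end of that exon, with the intron needed to form the edited hairpin. Without such transcripts Gria2 stood at 63.7 TPM in replicate 1 and 68.7 TPM in replicate 2, which was 39.6% and 38.1% of its gene-level TPM. Its share among AMPA subunits was then 44.9 ± 0.192%, with Gria1 at 27.0 ± 1.18%, Gria4 at 19.3 ± 0.353% and Gria3 at 8.78 ± 0.631%. The order Gria2, Gria1, Gria4, Gria3 was the same by both measures, but the place of Gria4 rested on Gria4-203, a transcript with a shorter coding sequence. Counting only complete coding transcripts with a flip or a flop exon (described next), a further choice made after seeing the data, Gria3 had 13.06 and 12.81 TPM and Gria4 had 11.2 and 11.9 TPM, so these places turned. Gria2 then held 50.7 ± 0.333% and Gria1 30.6 ± 1.26%. The ratio of Gria2 to Gria1 was 4.12 ± 0.0557 by TPM and 1.66 ± 0.0792 by complete coding transcripts.

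Each AMPA subunit gene holds a pair of mutually exclusive 115-nt exons, called flip and flop, that encode part of the ligand-binding domain and set how fast the channel desensitises. Both exons are shown for the 4 genes because transcripts were grouped by which of them they hold. In all 4 genes the flop exon precedes the flip exon in the direction of transcription. The sequences are exons of GENCODE M21 transcripts on mm10, 5′ to 3′ on the coding strand, and capitals mark the bases at which the flip and flop exons of the same gene differ.
Gria1 flip: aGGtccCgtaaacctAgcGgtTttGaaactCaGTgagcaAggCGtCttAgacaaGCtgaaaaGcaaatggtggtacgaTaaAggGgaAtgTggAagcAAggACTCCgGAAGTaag
Gria1 flop: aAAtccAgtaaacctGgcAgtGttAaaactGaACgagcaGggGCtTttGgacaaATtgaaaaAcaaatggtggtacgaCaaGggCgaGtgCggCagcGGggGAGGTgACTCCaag
Gria2 flip: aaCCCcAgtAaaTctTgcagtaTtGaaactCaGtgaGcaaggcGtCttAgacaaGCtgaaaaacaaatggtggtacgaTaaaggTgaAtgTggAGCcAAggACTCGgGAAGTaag
Gria2 flop: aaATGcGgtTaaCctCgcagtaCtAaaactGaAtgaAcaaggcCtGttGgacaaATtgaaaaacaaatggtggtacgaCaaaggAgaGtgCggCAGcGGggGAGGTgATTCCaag
Gria3 flip: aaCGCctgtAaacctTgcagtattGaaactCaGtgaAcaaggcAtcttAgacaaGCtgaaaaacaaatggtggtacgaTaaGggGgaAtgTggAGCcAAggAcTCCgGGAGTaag
Gria3 flop: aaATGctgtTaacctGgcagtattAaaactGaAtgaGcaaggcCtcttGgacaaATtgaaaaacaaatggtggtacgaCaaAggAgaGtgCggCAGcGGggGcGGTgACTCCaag
Gria4 flip: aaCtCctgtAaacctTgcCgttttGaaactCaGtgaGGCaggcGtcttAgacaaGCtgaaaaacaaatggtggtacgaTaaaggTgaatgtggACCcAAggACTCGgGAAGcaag
Gria4 flop: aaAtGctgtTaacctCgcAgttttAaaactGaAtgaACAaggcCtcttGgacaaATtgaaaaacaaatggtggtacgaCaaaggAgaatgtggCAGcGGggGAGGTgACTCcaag

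The exons lie at chr11:57310608-57310722 (flip) and chr11:57309769-57309883 (flop) for Gria1, and at chr3:80690404-80690518 and chr3:80691320-80691434 for Gria2. Those of Gria3 lie at chrX:41669501-41669615 and chrX:41654810-41654924, and those of Gria4 at chr9:4427030-4427144 and chr9:4432773-4432887. The flip and flop exons of a gene differed at 36 of 115 bases in Gria1 and Gria2, at 32 in Gria3 and at 31 in Gria4. The encoded residues differed at 8 positions in Gria1, 9 in Gria2 and Gria3, and 10 in Gria4. The same form was more alike between genes, with 87.8% to 92.2% identical bases among the flip exons and 87.8% to 94.8% among the flop exons.

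Transcripts with the flip exon outweighed those with the flop exon in all 4 AMPA subunit genes and in both libraries. In Gria2 the flip share of flip plus flop TPM was 84.1% in both replicate 1 and replicate 2. In Gria1 it was 72.7% and 73.0%. In Gria3 it was 77.7% and 83.6%, and in Gria4 71.6% and 62.8%. The means were 84.1 ± 0.00356% for Gria2, 80.7 ± 4.16% for Gria3, 72.9 ± 0.172% for Gria1 and 67.2 ± 6.18% for Gria4. The libraries were 5.89 percentage points apart in Gria3 and 8.75 in Gria4, so an order of the genes by flip share is not given.

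The shares rest on estimated read assignment. In Gria1 the flip transcript Gria1-201 (5546 nt) took 26.99 TPM in replicate 1 and 31.3 TPM in replicate 2, against 10.1 and 11.6 TPM for the flop transcript Gria1-202 (5399 nt), and the deposited posterior SD of their counts was 128 to 133. The assignment was less certain in Gria4, where the flip transcript Gria4-202 had 1004 and 962 counts (posterior SD 125 and 114) and the flop transcript Gria4-201 had 398 and 568 counts (posterior SD 126 and 115). In Gria3 the flop transcript Gria3-202 had 149.7 and 151 counts (posterior SD 46.9 and 37.9), against 1208 and 1315 counts of the flip transcript Gria3-201 (posterior SD 48.95 and 47.3). In Gria2 the flip transcript Gria2-202 had 53.5 and 57.8 TPM (4911 and 5473 counts). The flop transcript Gria2-201 had 10.1 and 10.9 TPM (2432 and 2708 counts). The 2 Gria2 transcripts also differ in length (4026 nt for Gria2-202 and 10371 nt for Gria2-201). So do those of Gria3 (5192 nt for the flip transcript Gria3-201 and 3081 nt for the flop transcript Gria3-202), while those of Gria4 are both 5441 nt long. In Gria2 and Gria3 the flip share can therefore not be told apart from a difference elsewhere in these transcripts. A transcript of Gria2 that holds both exons, Gria2-203, annotated for nonsense-mediated decay, took 7.60 ± 1.21% of the gene. Gria2-204, a second retained intron, took 5.76 ± 0.502%. Transcripts with neither exon took 53.6 ± 2.27% of Gria2, 59.5 ± 0.0283% of Gria4, 17.5 ± 10.8% of Gria3 and 3.49 ± 3.27% of Gria1. The largest of these in Gria3, the 322-nt Gria3-203, had 17.6% in replicate 1 and was listed at 0 in replicate 2. In Gria4 this was 1 transcript, Gria4-203, with 16.5 TPM in replicate 1 and 17.4 TPM in replicate 2. It is annotated as protein coding, but its coding sequence has 1299 nt against 2706 nt in the flip and flop transcripts and its last exon (chr9:4478263-4478852) ends before them.

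Of the 7 NMDA receptor subunit genes 5 were expressed. Grin1 (chr2:25291181-25319187, minus strand) had 42.4 TPM in replicate 1 and 40.2 TPM in replicate 2. Grin2b (chr6:135713233-136173511, minus strand), for GluN2B, known as the main GluN2 subunit before birth, had 29.9 and 37.2 TPM. Grin3a (chr4:49661611-49845744, minus strand), for GluN3A, which lowers the calcium permeability of the channel, had 24.4 and 22.3 TPM. By these TPM the order Grin1, Grin2b, Grin3a held in both libraries. Counting complete coding transcripts alone, Grin3a stood at 20.9 and 18.7 TPM and Grin2b at 15.9 and 19.1 TPM, so their order differed between the libraries. This Grin2b level includes Grin2b-205 (2.91 and 4.22 TPM), whose coding sequence has 1011 nt against 4446 nt in Grin2b-201 and Grin2b-202. Grin2b-202 had 8.92 and 10.5 TPM and Grin2b-201 had 4.04 and 4.38 TPM, so without Grin2b-205 Grin3a was the higher in both libraries. From counts per kb of the longest transcript Grin3a stood at 31.7 and 28.9 and Grin2b at 10.7 and 12.2 on the TPM scale, so the order turned in both.

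The remaining NMDA subunit genes were lower. Grin2a (chr16:9567898-9995560, minus strand), for GluN2A, whose level is known to rise after birth in rodents, had 5.74 TPM in replicate 1 and 6.09 TPM in replicate 2. Grin2d (chr7:45831883-45878378, minus strand), for GluN2D, known from the embryonic brainstem and diencephalon, had 2.79 and 3.65 TPM. Grin2c (chr11:115249169-115267243, minus strand), for GluN2C, best known from cerebellar granule cells, had 20 and 17 counts, or 0.200 and 0.170 TPM. Grin3b (chr10:79970715-79977190, plus strand), for GluN3B, known from motor neurons, had 24 and 21 counts, or 0.550 and 0.280 TPM. Exons of Grin3b share 1059 nt with those of Tmem259 on the opposite strand, a gene at 23.2 and 19.7 TPM, and the use of read strand is not given in the sources used here. Exons of Grin1 likewise share 1307 nt with the antisense gene Grin1os, which had 0.580 and 0.700 TPM.

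Among the GluN2 subunit genes Grin2b took 77.4% of the summed TPM in replicate 1 and 79.0% in replicate 2. Grin2a took 14.8% and 12.9%, Grin2d 7.21% and 7.74%, and Grin2c 0.517% and 0.361%. The second place depended on the transcripts counted. The leading transcript of Grin2a, Grin2a-203, is a 1099-nt retained intron with 84.0% and 84.1% of the gene's TPM, and the complete coding transcript Grin2a-202 had 0.920 and 0.970 TPM. The leading transcript of Grin2b, Grin2b-204, is 703 nt long with an incomplete coding sequence and took 41.8% and 43.3% of the gene's TPM. It held 176 of the 4116 Grin2b counts in replicate 1 and 235 of 4849 in replicate 2. By complete coding transcripts, the shorter Grin2b-205 among them, Grin2b held 80.3% of the GluN2 sum in replicate 1 and 80.0% in replicate 2. Grin2d then had 14.1% and 15.3% and Grin2a 4.65% and 4.07%. A 648-nt transcript of Grin2d that is not annotated in GENCODE M21 took 39.2% and 40.7% of that gene and was kept. From counts per kb of the longest transcript Grin2a stood at 2.72 and 2.90 and Grin2d at 2.54 and 3.28 on the TPM scale. Their order by that measure differed between the libraries. The ratio of Grin2b to Grin2a was 5.66 ± 0.633 by TPM, 18.5 ± 1.70 by complete coding transcripts and 4.07 ± 0.214 from the longest transcript.

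**Figure D2:**
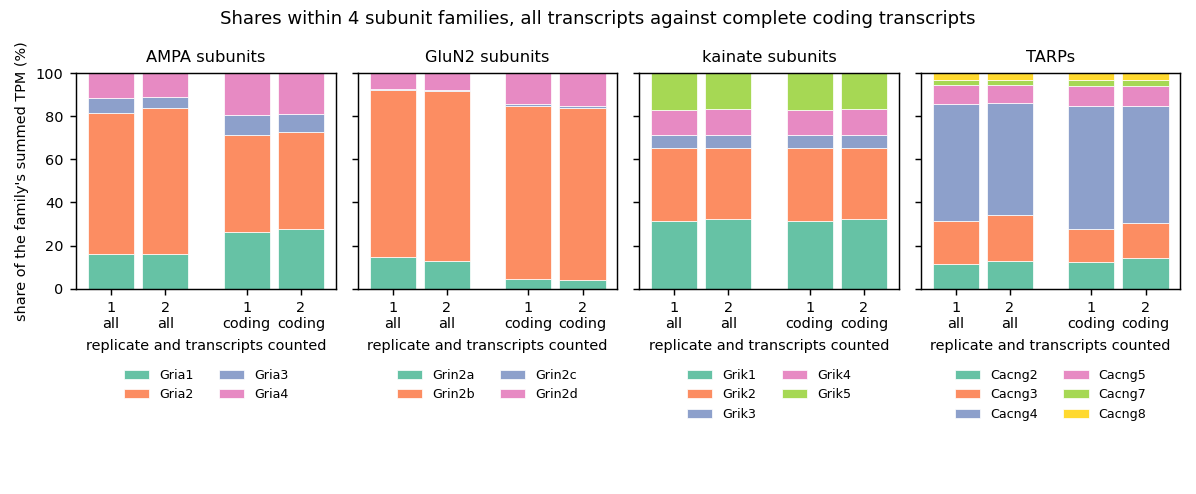
Share of each gene in the summed TPM of 4 families in replicates 1 and 2. The left pair of bars counts all transcripts, and the right pair complete coding transcripts and those not annotated in GENCODE M21. Gria2 drops to 44.9% of the AMPA sum in the right pair, against 66.5% by all, and Grin2a and Grin2d change places. The kainate shares could change little, because the leading Grik2 transcript (80.4% and 83.2% of that gene) is not annotated there and was kept.

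Splicing of Grin1 was read from 3 alternative segments. The N1 cassette adds 63 nt near the N-terminus and alters proton and polyamine sensitivity, and the C1 cassette adds 111 nt to the C-terminal tail with signals for retention in the endoplasmic reticulum. The last exon starts at either of 2 splice sites, which gives the C2 or the shorter C2′ tail, and C2′ is known to favour delivery to the cell surface. Both cassettes are shown because the named forms differ by them, as exons of GENCODE M21 transcripts on mm10, 5′ to 3′ on the coding minus strand.
Grin1 N1 cassette: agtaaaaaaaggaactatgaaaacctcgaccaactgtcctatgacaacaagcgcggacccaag
Grin1 C1 cassette: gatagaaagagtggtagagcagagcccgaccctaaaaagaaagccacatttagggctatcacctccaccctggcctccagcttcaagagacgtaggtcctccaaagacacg

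The N1 cassette lies at chr2:25311343-25311405, the C1 cassette at chr2:25294438-25294548 and the last exon at chr2:25291181-25292484 with C2 or chr2:25291181-25292128 with C2′. Of the complete coding Grin1 TPM, transcripts with C2′ took 76.4% in replicate 1 and 75.5% in replicate 2, and those with C2 23.6% and 24.5%. The C1 cassette was in 24.0% and 24.8%. The N1 cassette was in 11.7% and 5.87%, the lowest of these segments and the one that differed most between the libraries, resting on Grin1-207 with 314 and 157 counts (posterior SD 89.7 and 46.5). The leading form, Grin1-205 with 885 residues, has neither cassette and ends in C2′. It took 35.9% and 40.6% of all Grin1 TPM. Next were Grin1-206 (C1 and C2′) with 11.5% and 11.4%, and Grin1-202 (C2 without cassettes) with 11.2% in both. Grin1-201 (C1 and C2) had 6.04% and 7.10%, and Grin1-207 (N1 and C2′) had 8.55% and 4.38%. The other 3 forms with N1 (Grin1-203, Grin1-204 and Grin1-208) were listed at 0 in both libraries. The posterior SD of their counts was 44.0 to 74.5, so their absence is not certain. Transcripts of Grin1 annotated without a coding sequence made up part of the rest, the largest being Grin1-211 with 7.66 ± 0.339%, Grin1-209 with 6.79 ± 1.62% and Grin1-212 with 5.20 ± 0.0212%.

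**Figure D3:**
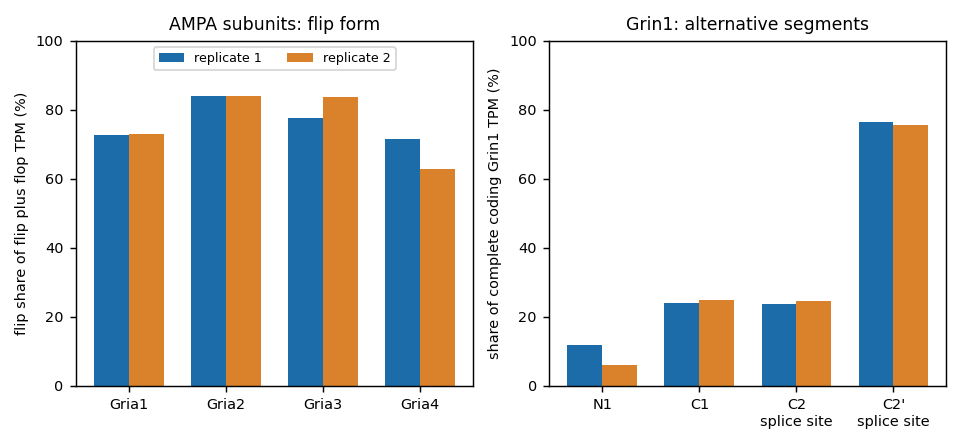
Left, flip share (%) of flip plus flop TPM of the 4 AMPA subunit genes; right, share (%) of complete coding Grin1 TPM in transcripts with each alternative segment; bars show replicate 1 and replicate 2. Flip lies between 62.8% and 84.1% in all 4 genes, and the C2′ site is used in 76.4% and 75.5% of complete coding Grin1.

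All 5 kainate receptor subunit genes were expressed. Grik1 (chr16:87895900-88290265, minus strand) and Grik2 (chr10:49094833-49788766, minus strand), which encode the low-affinity subunits GluK1 and GluK2, were at similar levels. Grik2 had 22.8 TPM in replicate 1 and 23.9 TPM in replicate 2, and Grik1 had 20.9 and 23.7 TPM, so their values overlapped. Grik3 (chr4:125490700-125714173, plus strand), the remaining low-affinity subunit gene, was the lowest with 3.92 and 4.34 TPM. Grik5 (chr7:25009849-25072346, minus strand) and Grik4 (chr9:42518135-42944493, minus strand) encode the high-affinity subunits GluK5 and GluK4, which need a low-affinity partner to form a channel. Grik5 had 11.3 and 12.02 TPM and Grik4 had 7.85 and 9.08 TPM, so that Grik5 took 58.0 ± 1.47% of the high-affinity sum. Grik1, Grik2 and Grik5 each exceeded Grik4, and Grik4 exceeded Grik3, in both libraries.

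The Neto genes encode auxiliary subunits that slow the gating of kainate receptors. Neto2 (chr8:85636588-85700924, minus strand) had 34.8 TPM in replicate 1 and 38.2 TPM in replicate 2, above every kainate subunit gene in both libraries. Neto1 had 3.33 and 2.67 TPM, so the ratio of Neto2 to Neto1 was 10.4 in replicate 1 and 14.3 in replicate 2. The delta receptor gene Grid1 (chr14:34820108-35583379, plus strand), whose product GluD1 acts as a synaptic organiser, had 5.63 and 6.67 TPM. Grik1 was 1 of 2 members with several transcripts whose leading transcript differed between the libraries, with Grik1-202 ahead in replicate 1 at 50.4% and Grik1-201 ahead in replicate 2 at 50.4%. The other was Grin3b, which had few counts. In Grik2 the leading transcript had 80.4% and 83.2% and is not annotated in GENCODE M21, so its exons were not described.

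Of the 7 metabotropic receptor genes 6 were expressed. Grm3 (chr5:9485541-9725170, minus strand), a group II receptor that lowers cyclic AMP and is found on neurons and astrocytes, was the highest and had 46.4 TPM in replicate 1 and 46.5 TPM in replicate 2. The second group II receptor gene, Grm2 (chr9:106643095-106656082, minus strand), had 13.8 and 15.5 TPM. Grm5 (chr7:87584168-88134907, plus strand), a group I receptor that releases calcium from internal stores, had 27.1 and 28.6 TPM. Grm3 took 35.1 ± 1.43% of the summed metabotropic TPM and Grm5 21.01 ± 0.119%.

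Group III receptors act mainly at presynaptic terminals. Grm7 (chr6:110645581-111567230, plus strand) led them with 20.9 TPM in replicate 1 and 24.4 TPM in replicate 2. Grm8 (chr6:27275119-28135178, minus strand) had 12.1 and 13.2 TPM, and Grm4 (chr17:27422387-27521403, minus strand) had 8.16 and 8.32 TPM. Grm6 (chr11:50850685-50866208, plus strand), known from ON bipolar cells of the retina, had 5 and 4 counts, or 0.080 and 0.10 TPM. Grm7 took 51.9 ± 1.59% of the group III sum and the order Grm7, Grm8, Grm4, Grm6 held in both libraries. In Grm5, whose b form contains a 96-nt exon (chr7:88116193-88116288), the annotated transcript with that exon, Grm5-204, was listed at 0 in both libraries, and Grm5-202 without it led with 54.7 ± 0.276%. A further Grm5 transcript of 3612 nt took 4.34% in replicate 1 and 2.72% in replicate 2. It is not annotated in GENCODE M21, so whether it holds the exon was not examined, and a level of the b form is not given.

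The 6 TARP genes were all expressed, and Cacng4 led. TARPs bind AMPA receptors, carry them to the surface and slow their desensitisation. Cacng4 (chr11:107732357-107794557, minus strand) had 56.2 TPM in replicate 1 and 49.9 TPM in replicate 2, or 54.4% and 52.1% of the TARP sum. Cacng3 (chr7:122670492-122769393, plus strand) had 20.4 and 20.2 TPM. Cacng2 (chr15:77991748-78120028, minus strand), which encodes stargazin, the founding TARP, had 11.8 and 12.5 TPM. Cacng8 (chr7:3390683-3415648, plus strand), best known from the hippocampus, had 3.26 and 2.98 TPM. These belong to type I. The type II gene Cacng5 (chr11:107874605-107915055, minus strand) had 9.14 TPM in replicate 1 and 7.91 TPM in replicate 2. The type II gene Cacng7 (chr7:3332955-3368221, plus strand) had 2.54 and 2.40 TPM. No TPM of one TARP gene overlapped that of another, but the deposited credible bounds of Cacng8 (2.74 to 3.85 TPM in replicate 1 and 2.47 to 3.51 TPM in replicate 2) overlapped those of Cacng7 (2.07 to 2.94 TPM and 1.95 to 2.78 TPM).

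Cnih2 was the most abundant of the 34 genes. Cnih2 (chr19:5092868-5098521, minus strand) encodes a cornichon protein that helps AMPA receptors leave the endoplasmic reticulum and slows their deactivation. It had 418 TPM in replicate 1 and 402 TPM in replicate 2, above 98.1% of expressed protein coding genes. Its level was 2.60 and 2.23 times that of Gria2, or 6.57 and 5.85 times when complete coding transcripts were compared. Cnih3 (chr1:181352628-181460641, plus strand), its close relative, had 11.2 and 8.75 TPM, and the ratio of Cnih2 to Cnih3 was 37.3 in replicate 1 and 45.9 in replicate 2. Cnih2 has a single listed transcript of 1237 nt, so its level did not depend on read assignment among transcripts.

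Against other transmitter receptors, the 34 genes had nearly the same median as GABA-A receptor subunits and a higher one than glycine and nicotinic receptor subunits. On the log2(TPM + 1) scale the median of the 34 genes minus that of 16 GABA-A subunit genes was 0.07 in replicate 1 and 0.05 in replicate 2. The difference was 2.38 and 2.05 to 5 glycine receptor subunit genes, and 2.30 and 2.22 to 11 nicotinic subunit genes. These are differences of log2 values, and their SD between the libraries was 0.01, 0.23 and 0.05. The 34 genes include metabotropic receptors and auxiliary subunits, while the other lists hold channel subunits only. For the 17 ionotropic subunit genes alone the difference to GABA-A was 0.51 in replicate 1 and 0.10 in replicate 2 (SD 0.29). It was 2.81 and 2.10 to glycine and 2.73 and 2.27 to nicotinic subunits. No p is given, because an exact two-sided sign-flip test over 2 libraries cannot go below 0.5. The expressed shares were 31 of 34 for the glutamate receptor genes, 12 of 16 for GABA-A, 3 of 5 for glycine and 7 of 11 for nicotinic subunits. When only the expressed genes of each list were compared, the difference was -0.46 to GABA-A and -0.53 to glycine subunits, so both turned, and 1.12 to nicotinic subunits. Levels within each list spread over several log2 units, more than the differences to the GABA-A list.

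**Figure D4:**
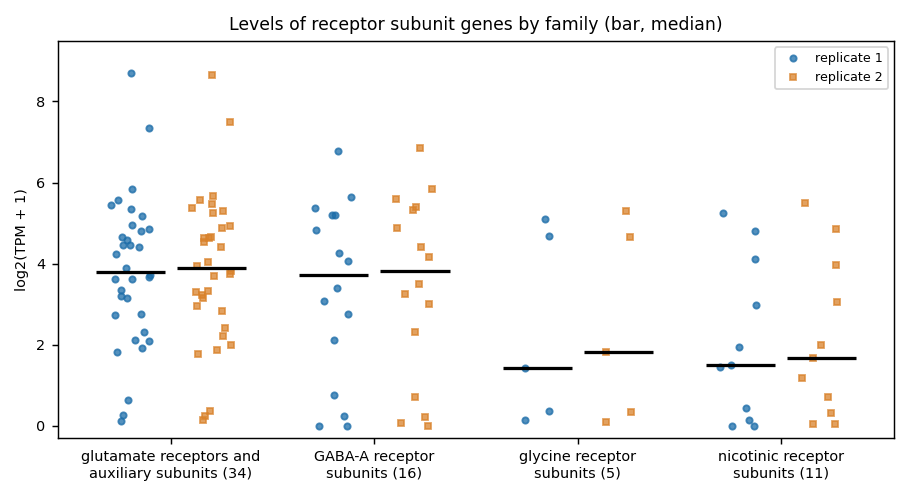
log2(TPM + 1) of each gene of the 34 glutamate receptor and auxiliary subunit genes and of 3 other receptor families in replicate 1 (circles) and replicate 2 (squares), with the median as a bar. The 34 genes and the GABA-A list have close medians (3.84 and 3.78 on average), above those of the glycine (1.62) and nicotinic (1.58) lists.

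Among the genes of those families, the GABA-A alpha subunit gene Gabra2 averaged 52.5 ± 5.67 TPM. The glycine receptor list was led by the alpha subunit gene Glra2 with 33.5 TPM in replicate 1 and 38.0 TPM in replicate 2, and the nicotinic list by Chrna4, for an alpha subunit, with 37.1 and 43.8 TPM. Next in these 2 lists were Glrb (24.4 ± 0.445 TPM) and Glra3 (2.11 ± 0.608 TPM), and Chrnb2 (27.4 ± 0.813 TPM) and Chrna3 (15.5 ± 1.22 TPM).

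Genes that work with these receptors were expressed almost throughout. All 14 other AMPA receptor partners were expressed, with Olfm1 (265 ± 4.63 TPM), Olfm2 (177 ± 5.85 TPM) and the neuronal pentraxin receptor gene Nptxr (43.7 ± 1.36 TPM) the highest. Olfm1 and Olfm2 encode secreted olfactomedins found in AMPA receptor complexes. All 19 scaffold and trafficking genes were expressed, led by the scaffold gene Dlgap4 (223 ± 1.92 TPM), Nsf (164 ± 0.834 TPM), for an ATPase that binds GluA2, and Pick1 (88.1 ± 1.84 TPM), for a PDZ protein that binds the GluA2 tail.

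Of 15 genes for glutamate release, uptake and metabolism 13 were expressed, led by the glutamine synthetase gene Glul (147 ± 9.71 TPM), the glutamine transporter gene Slc38a2 (96.1 ± 0.771 TPM) and the glial glutamate transporter gene Slc1a3 (84.3 ± 3.82 TPM). The 2 below 1 TPM were the vesicular transporter gene Slc17a7, with 0.680 TPM in replicate 1 and 0.440 TPM in replicate 2, and the D-amino acid oxidase gene Dao, which had 0 counts in both. All 13 genes of calcium and calmodulin signalling were expressed, among them the calmodulin genes Calm2 (1507 ± 43.3 TPM) and Calm3 (284 ± 9.84 TPM). All 13 receptor RNA editing and splicing factors were expressed, led by Elavl4 (275 ± 6.58 TPM), Rbfox1 (147 ± 3.43 TPM) and Ptbp2 (142 ± 0.156 TPM), which encode neuronal RNA-binding proteins. No gene of these 5 lists differed 2-fold between the pools.

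Between the pools, none of the 33 genes tested differed by 2-fold at an adjusted p under 0.05 when the rounded expected counts of each gene were compared by an exact binomial test (two-sided, Benjamini-Hochberg adjustment over 18269 genes). Over all those genes 1.63% (298) passed. Grm6 had too few counts to be tested. At an unadjusted p under 0.05 there were 19 members. The share of all tested genes at that level was not computed, so nothing is read from this count. With no threshold on the fold, 14 members passed at an adjusted p under 0.05. The 5 higher in replicate 1 were Cacng4, Cacng5, Cnih2, Cnih3 and Grin3a, where 10.1% of all tested genes passed in that direction. The 9 higher in replicate 2 were Gria1, Gria2, Grik1, Grik4, Grin2b, Grin2d, Grm2, Grm7 and Neto2, where 9.18% of all tested genes did.

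These differences were small. Cnih3 had 541 counts in replicate 1 and 432 in replicate 2, a log2 ratio of 0.37 (95% counting interval 0.19 to 0.56, adjusted p 0.000920 in the exact binomial test) and the largest fold of the 33 at 1.29. Grin2d had 225 and 298 counts, a log2 ratio of -0.36 (-0.61 to -0.10, adjusted p 0.0307 in the exact binomial test). Gria2, with 15197 and 17513 counts, had a log2 ratio of -0.16 (-0.19 to -0.13, adjusted p 9.31e-21 in the exact binomial test). The median size of the log2 ratio was 0.14 among the 33 genes and 0.11 among all genes tested. The test knows counting noise alone, and the counts of the 2 libraries differed by more than that over all genes (chi-square of 6.65 per gene across 18269 genes). It compares these 2 libraries, and no further library was there to check a difference.

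Among the groups, 4 of 10 auxiliary subunit genes passed with more in replicate 1 and 1 with more in replicate 2, and 1 of 17 ionotropic subunit genes passed with more in replicate 1 and 6 with more in replicate 2. Over all tested genes 10.1% passed with more in replicate 1 and 9.18% with more in replicate 2. The group counts also depended on scaling, since with DESeq2 size factors the auxiliary gene Cnih2 no longer passed and the ionotropic gene Grik2 did. Some marker lists also moved between the pools, and others moved little or in both directions. Of 7 young neuron markers 3 passed with more in replicate 1 and 4 with more in replicate 2. Of 7 mature neuron markers 5 passed with more in replicate 2 and none with more in replicate 1 (sums of 1027 TPM in replicate 1 and 1092 TPM in replicate 2). Of 7 radial glia markers 3 passed with more in replicate 1 (sums of 1533 and 1454 TPM), of 6 astrocyte markers 4 (264 and 202 TPM), of 7 microglia markers 5 (147 and 117 TPM), of 5 meningeal markers 4 (440.3 and 376 TPM) and of 6 erythroid markers 6 (14772 and 11524 TPM). No oligodendrocyte precursor marker of 6 passed. Among 6 endothelial markers 1 passed with more in replicate 1, and among 5 mural cell markers 1 passed in each direction. Telencephalic markers were split, with 4 of 7 passing with more in replicate 1 and 2 with more in replicate 2. Midbrain markers had 3 of 6 passing with more in replicate 1 and 1 with more in replicate 2. All 5 skin and liver markers differed 2-fold, 3 with more in replicate 1 and 2 with more in replicate 2, and none was expressed in both. The part of these cell types in the differences of the receptor genes was not tested.

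**Figure D5:**
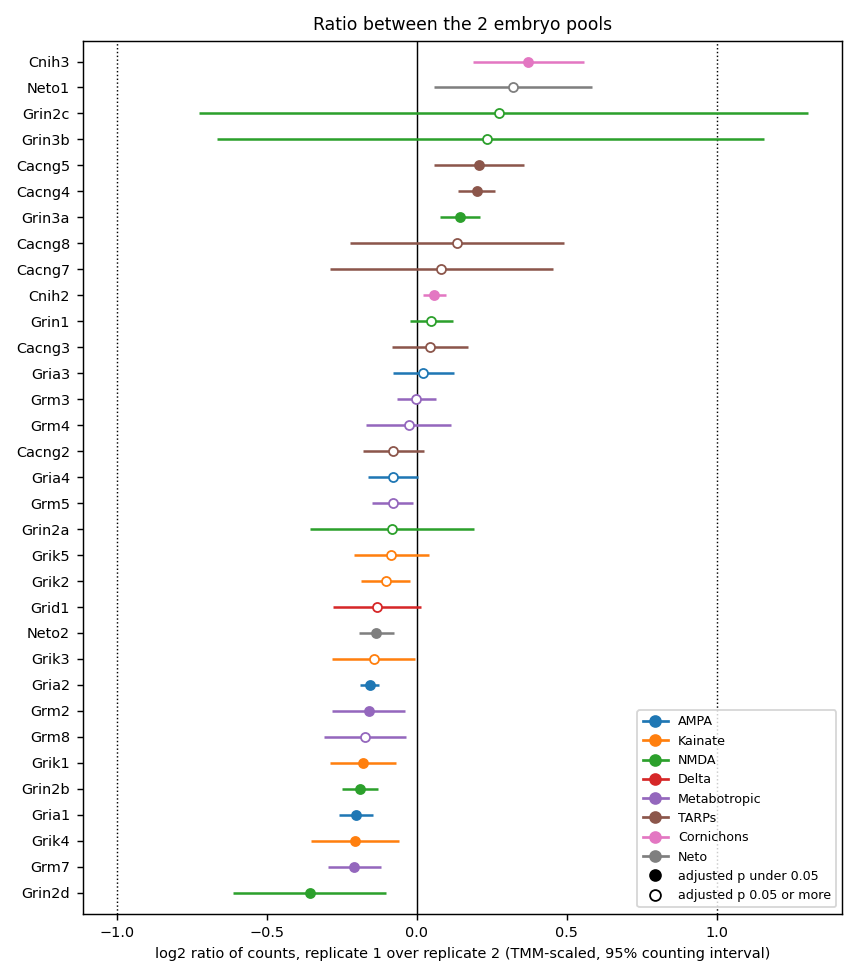
log2 ratio of counts, replicate 1 over replicate 2, of the 33 tested genes with 95% counting intervals, coloured by receptor group; filled points passed at an adjusted p under 0.05 with no fold threshold, and dotted lines mark 2-fold. All 33 points lie inside the 2-fold lines, from -0.36 for Grin2d to 0.37 for Cnih3.

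Of the 34 genes, 9 had a single listed transcript and 25 had several, and in 23 of the 25 the same transcript led in both libraries. Among expressed members not yet described by transcript, a complete coding transcript led in each case. Cacng4-201 took 97.6 ± 1.39% of Cacng4, Grm4-201 92.7 ± 0.417% of Grm4, Grid1-201 87.0 ± 5.52% of Grid1 and Grik4-201 78.2 ± 0.120% of Grik4. Shares were lower for Cacng3-201 (72.7 ± 0.438%), Grin3a-201 (72.6 ± 9.69%), Grm7-202 (69.7 ± 2.44%) and Cnih3-201 (67.2 ± 3.01%). By TPM the most even splits were those of Grin2d-201 (60.1 ± 1.05%), Cacng5-201 (58.8 ± 3.05%) and Grm8-202 (49.6 ± 2.20%). By counts Grin2d was not evenly split, with 211 in replicate 1 and 278 in replicate 2 for Grin2d-201. Its other, shorter transcript had 14.0 and 19.7 counts.

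Most of the genes are long. The median span of the 34 genes on mm10 was 117 kb, against 25.0 kb of expressed protein coding genes, and 19 of the 34 exceed 100 kb, against 15.7% of expressed protein coding genes. The longest, Grm7, spans 922 kb, and the shortest, Cnih2, 5.65 kb. The genes lie on 18 chromosomes, and the closest pairs are both of TARPs. Cacng7 and Cacng8 are 22.5 kb apart on chromosome 7, and Cacng4 and Cacng5 80.0 kb apart on chromosome 11. The levels of the first pair were close, with 3.12 ± 0.198 TPM for Cacng8 and 2.47 ± 0.0990 TPM for Cacng7. Those of the second were apart, with 53.0 ± 4.48 TPM for Cacng4 and 8.53 ± 0.870 TPM for Cacng5.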

How the data were processed

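Per the file headers, the deposited tables hold, for each gene and each transcript of a library, an expected count, TPM, FPKM, their posterior means, a posterior SD of the count (a score here) and the percent of the gene's TPM that a transcript takes. FPKM was not used. The deposited gene tables also give credible bounds of TPM, whose level the headers do not state. Notes that the authors deposited with the tables name build mm10 and annotation M4. Which aligner and counter were run, and whether strand was used, is not given in the sources used here. Spike-ins were part of the total to which the deposited TPM was scaled. Rows without an Ensembl ID took 2.30% of counts in replicate 1 and 2.42% in replicate 2 and stayed out of all tests.

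Members were matched by gene ID. Names, biotypes, exons and coordinates came from GENCODE M21 on mm10, which held 111 of the members' 119 transcripts (92 at the same length). The 8 others, most of them of Grik2, were kept in all sums, also where complete coding transcripts were counted. The members and lists were chosen with earlier results of these data known. All members are named, and of each pathway and comparison list the 3 genes with the highest mean TPM plus any that passed the pool test at 2-fold, except a few that are not reported here; further genes (Slc17a7, Dao) are named as the exceptions of a count. Transcripts are named from a mean share of 5% for AMPA subunits and Grin1, and otherwise the leading one. Expressed means 1 TPM or more in both libraries, and log2 medians used a pseudocount of 1. Flip and flop were told apart by translating the exons, since the form with asparagine in place of serine or threonine is flop.

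The replicates are separate pools per the labels. Expected counts were rounded to whole numbers and compared gene by gene with an exact binomial test (two-sided, conditional on the sum, TMM library sizes from edgeR 4.0.16 in R 4.3.3) wherever the mean count reached 10, with Benjamini-Hochberg adjustment. A log2 ratio used 0.5 added to each count. The test was also run on simulated counts that held counting noise alone. That run could not show how the test behaves under the wider spread between these libraries. DESeq2 1.42.0 gave alternative size factors. The rest used scipy 1.17.1, pandas 2.3.3 and numpy 2.4.6 under Python 3.11.15, and figures matplotlib 3.10.9. Alternatives covered the TPM estimate, length, scaling, thresholds and leaving out each library.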

Additional observations from a re-analysis of the deposited data

How the results depend on the processing

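No paired analysis was possible because the 2 libraries belong to 1 group. The number of expressed members was 31 with every estimate, threshold (0.5 and 2 TPM) and left-out library, and 30 without non-coding or incomplete transcripts, a choice made after seeing the data that took Grin2a to 0.945 TPM. From counts per kb of the longest transcript Gria2 stood at 95.3, Grin2b at 11.5 and Grin2a at 2.81 on the TPM scale, against 171, 33.6 and 5.92 TPM, and Grin3a at 30.3 against 23.3 TPM. The median of all members, 3.84 on the log2(TPM + 1) scale, was 4.15 from counts per kb of the longest transcript, 3.92 with TPM rescaled over Ensembl genes, 3.76 from complete coding transcripts, 3.74 with a pseudocount of 0.1 and 4.14 over expressed members. The difference to GABA-A subunits (0.06) became -0.082 from the longest transcript and -0.46 over expressed genes, so both turned, and it was 0.11 with posterior mean TPM and 0.46 from complete coding transcripts. That to glycine subunits (2.21) turned to -0.53 over expressed genes, where fewer genes enter, and was 2.78 from the longest transcript and 2.63 with a pseudocount of 0.1. That to nicotinic subunits (2.26) was 2.18 from complete coding transcripts, 2.68 with the pseudocount and 1.12 over expressed genes. The share of Gria2 (66.5%) was 48.6% from the longest transcript, 44.9% from complete coding transcripts and 50.7% from those with a flip or flop exon, and that of Grin2b (78.2%) was 65.8% and 80.1%. With posterior mean TPM the flip share of Gria2 was 84.0%, that of C1 25.5% and that of C2′ 75.3%. The cause of the other changes was not tested. Leaving out a library gave 65.4% and 67.5% for Gria2 and 77.4% and 79.0% for Grin2b. No member passed at 2-fold under any scaling, filter or count estimate run, and none at 1.5-fold, which was counted with the main settings only. With no fold threshold 13 to 15 passed. In the exact binomial test Cnih2 (adjusted p 0.0610 with DESeq2 size factors) and Grm2 (0.0534 with total counts, 0.0630 with no filter on low counts) were lost. Grik2 (0.0346) and Grm8 (0.0430) were gained with DESeq2 size factors. At 5 counts or fewer a library Grm6 could not be tested.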
